A study of Homo sapiens with 8 samples.

Results

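The 9 genes POSTN, MGP, LUM, MATN2, OLFML2A, CCN3, ECM2, MOXD1 and SCRG1 were followed on 8 Affymetrix arrays of A375, a human melanoma cell line with an activating BRAF mutation. They were chosen by their differences on these arrays: siBRAF, an siRNA against BRAF, minus the control siRNA in both media, and the BRAF inhibitor vemurafenib minus its solvent. These differences are given below as description. The genes are represented by 20 probe sets that carry exactly 1 gene symbol, among 41091 such probe sets and 19775 named genes in all. Of the 9, 8 were higher with siBRAF than with siCont in both media. These 8 are not all structural components of the matrix, MOXD1 and SCRG1 being examples. ECM2 was lower with siBRAF than with siCont in both media, and it was on the list for its higher value in vemurafenib.

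The tumour cells received siBRAF, siATF4 (against the stress transcription factor ATF4) or the nontargeting siCont. The siBRAF cells were kept without glutamine or in normal medium, and the siATF4 cells were kept in vemurafenib or in normal medium. The siCont cells were kept in vemurafenib (10 uM), in its solvent DMSO, without glutamine or in normal medium. The protocol gives 18 h for the media and 4 h for vemurafenib and DMSO, in medium with 10% serum. All 8 arrays thus come from transfected cells of 1 line, with 1 array per condition, and the siRNA sequences are not given in the sources used here. The differences have no replicate check, no p-value is given, and "higher" and "lower" describe pairs of arrays.

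A mutated BRAF kinase drives the MEK and ERK kinases without an outside growth signal, and vemurafenib blocks it. The extracellular matrix is the secreted scaffold of collagens, glycoproteins and proteoglycans around cells. Matricellular proteins such as periostin and CCN3 add little to its structure but bind integrins and growth factors, and melanoma cells are known to make several of them.

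The arrays fell into 2 sets by deposited scale. The median intensity was 14.76 to 15.5 on the 5 arrays without drug or solvent and 36.38 to 36.85 on the 3 arrays with vemurafenib or DMSO, so differences were taken only within a set. Where 1 value per gene was needed, the probe set with the highest average log2 value stood for it. Differences and folds are on the log2(intensity + 1) scale, which understates the change of low values. A gene entered a comparison if its higher value reached the array median, taken over all probe sets. A difference was counted from 2-fold. ATF4 itself read 757 with siATF4 and 4548 with siCont in vemurafenib, and 534 with siATF4 and 1814 with siCont in normal medium. The probe annotation names BRAF for 0 probe sets, so the siBRAF labels could not be checked on their target. Of 12 genes driven by ERK signalling, 10 were at least 2-fold lower with siBRAF without glutamine and 9 in normal medium. Of the same 12, 11 were at least 2-fold lower in vemurafenib than in DMSO. The shares of all genes lower by that measure were 10.8%, 7.61% and 1.92%, in the same order. EGR1, among the 12, was higher with siBRAF in normal medium, by 0.83 on the log2 scale. Among melanocyte lineage genes, SOX10 and MITF lay above the array median on all 8 arrays. Of the pigment genes, TYR lay above it on all 8, by little, PMEL on 3, and MLANA and TYRP1 on 0.

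Promoter sequence was at hand in RefSeq (build GRCh38.p14) for 5 of the 9 genes. It is shown for POSTN and MOXD1, which were both higher with siBRAF, and for ECM2, which was lower. Each line holds the 250 bases before the transcription start on the strand of the gene, and capitals mark matches to the motifs searched.
POSTN: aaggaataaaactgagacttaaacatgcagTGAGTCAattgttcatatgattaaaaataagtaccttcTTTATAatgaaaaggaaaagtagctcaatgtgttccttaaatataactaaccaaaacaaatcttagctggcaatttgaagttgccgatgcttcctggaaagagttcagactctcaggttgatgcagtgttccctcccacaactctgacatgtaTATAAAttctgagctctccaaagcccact
MOXD1: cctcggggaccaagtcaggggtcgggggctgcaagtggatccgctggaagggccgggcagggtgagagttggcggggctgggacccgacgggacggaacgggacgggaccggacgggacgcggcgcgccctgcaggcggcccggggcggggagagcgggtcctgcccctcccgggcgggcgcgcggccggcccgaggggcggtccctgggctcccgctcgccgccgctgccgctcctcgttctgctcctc
ECM2: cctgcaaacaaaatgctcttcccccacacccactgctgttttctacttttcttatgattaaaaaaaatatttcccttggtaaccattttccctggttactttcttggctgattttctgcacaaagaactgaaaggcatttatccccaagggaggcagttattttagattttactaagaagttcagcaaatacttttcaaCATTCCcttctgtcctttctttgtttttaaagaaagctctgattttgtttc

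The POSTN stretch lies at chr13:37598769-37599018, the MOXD1 stretch at chr6:132401476-132401725 and the ECM2 stretch at chr9:92535991-92536240, all on the minus strand. In the full windows of 300 bases, which run 50 bases past the start, the GC content was 39.0% for POSTN, 79.0% for MOXD1 and 36.3% for ECM2, against a median of 58.7% over 35116 promoters. The windows held 3, 40 and 0 CpG dinucleotides, in the same order. Of the others, SCRG1 stood at 49.7% GC, and OLFML2A, with 2 annotated starts, at 76.3% and 51.3%. The genes that were higher with siBRAF thus had promoters both poor and rich in CpG. The motif of the TATA box, written TATAAA, was searched on both strands. The same was done for the AP-1 motif, which is TGANTCA. For TEAD factors the letters searched were GGAATG, and for forkhead factors they were TGTTTAC. POSTN held the TATA motif with its first base at position -29 from the start, a reverse match to it at -182 and an AP-1 match at -220. ECM2 held a reverse TEAD match at -51, and the second OLFML2A window held one at -204. The windows of MOXD1, SCRG1 and the first OLFML2A start held none of the 4. Of all promoters, 11.5% held the TATA motif, 7.71% the AP-1 motif, 14.0% the TEAD motif and 3.42% the forkhead motif. No matches overlapped, and a match describes letters and not a bound site.

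With siBRAF, 8 of the 9 genes were 23.0-fold to 84.3-fold higher than with siCont without glutamine, and 4.75-fold to 67.8-fold higher in normal medium. With log2(intensity + 16) these ranges were 6.2-fold to 60.2-fold and 3.91-fold to 37.6-fold, and with the mean of all probe sets 4.69-fold to 81.0-fold and 2.75-fold to 42.9-fold. The 2-fold counts were 8 higher and 1 lower without glutamine and 8 higher and 0 lower in normal medium, and all 9 genes passed the filter in both. Of all genes tested, 12.8% were higher and 10.8% lower by that measure without glutamine, 7.16% higher and 7.61% lower in normal medium, and 5.57% higher in both media. The counts restate how the genes were picked. In bulk RNA, fewer cells of a type and less RNA per cell cannot be told apart.

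POSTN encodes periostin, which binds integrins and collagen in healing and tumour stroma. Its intensity was 984 with siBRAF against 11.1 with siCont without glutamine, and 1113 with siBRAF against 32.0 with siCont in normal medium. The differences were 6.35 and 5.08 on the log2 scale. Only the siCont array without glutamine lay below its array median, so that fold starts from background. With values below the median raised to it, a setting added after the data were seen, the difference there was 5.97.

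CCN3 encodes a secreted matricellular protein of the CCN family. Its intensity was 3372 with siBRAF against 40.3 with siCont without glutamine, and 3890 with siBRAF against 110 with siCont in normal medium. The differences were 6.35 and 5.13, and its second probe set gave 6.33 and 5.10. All 8 arrays lay above the array median on both probe sets, so neither end of these differences lies below it. The median is not a detection limit, and no detection call was used.

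MGP encodes matrix Gla protein, a vitamin K-dependent inhibitor of tissue calcification. Its intensity was 1818 with siBRAF against 22.5 with siCont without glutamine (difference 6.27), and 2095 with siBRAF against 90.4 with siCont in normal medium (difference 4.52). Both siBRAF arrays stood far above the 3 other arrays of that set, and all 8 arrays lay above the median.

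OLFML2A encodes a secreted olfactomedin-domain protein. Its only probe set read 2904 with siBRAF against 41.4 with siCont without glutamine (difference 6.10), and 2776 with siBRAF against 63.8 with siCont in normal medium (difference 5.42). All arrays lay above the median, and the siBRAF arrays differed little from each other.

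LUM encodes lumican, a leucine-rich proteoglycan that helps to space collagen fibrils. Its intensity was 388 with siBRAF against 12.5 with siCont without glutamine, and 249 with siBRAF against 51.6 with siCont in normal medium. The difference was 4.85 without glutamine and 2.25 in normal medium, where it was the smallest of the 8. The siCont array without glutamine lay below the median, and with values raised to it the difference was 4.62.

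MATN2 encodes matrilin 2, a filament-forming adaptor protein of the matrix. Its intensity was 106 with siBRAF against 3.64 with siCont without glutamine, and 139 with siBRAF against 4.02 with siCont in normal medium. Both siBRAF arrays were the only ones above the array median among all 8. The differences of 4.52 and 4.80 therefore start below the median on both siCont arrays, and they became 2.76 and 3.12 with values raised to it.

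MOXD1 encodes a copper monooxygenase related to dopamine beta-hydroxylase, and SCRG1 a small secreted protein first known from scrapie-infected mouse brain, and both were listed with the matrix genes. MOXD1 read 2374 with siBRAF against 27.2 with siCont without glutamine (difference 6.40), and 3061 with siBRAF against 72.8 with siCont in normal medium (difference 5.37). Its second probe set gave 6.65 and 5.45. SCRG1 read 1167 with siBRAF against 34.9 with siCont without glutamine (difference 5.02), and 1234 with siBRAF against 17.2 with siCont in normal medium (difference 6.08). Both genes lay above the median on the siCont arrays of both media. Among 13346 genes in normal medium SCRG1 ranked 1 from the top, OLFML2A 2 and MOXD1 3. The place of SCRG1 depended on its probe sets: with the mean of both it stood at 3.36 (10.2-fold), below OLFML2A at 5.42 and CCN3 at 5.11. With log2(intensity + 16) it was 37.6-fold higher.

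ECM2, a leucine-rich protein of the matrix related to decorin, ran the other way. Its intensity was 14.3 with siBRAF against 189 with siCont without glutamine, and 13.4 with siBRAF against 21.1 with siCont in normal medium. It was 12.4-fold lower with siBRAF without glutamine (difference -3.63) and differed by less than 2-fold in normal medium (-0.62). With the mean of its probe sets it was 3.89-fold lower without glutamine. Both siBRAF arrays lay below the array median.

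**Figure D1:**
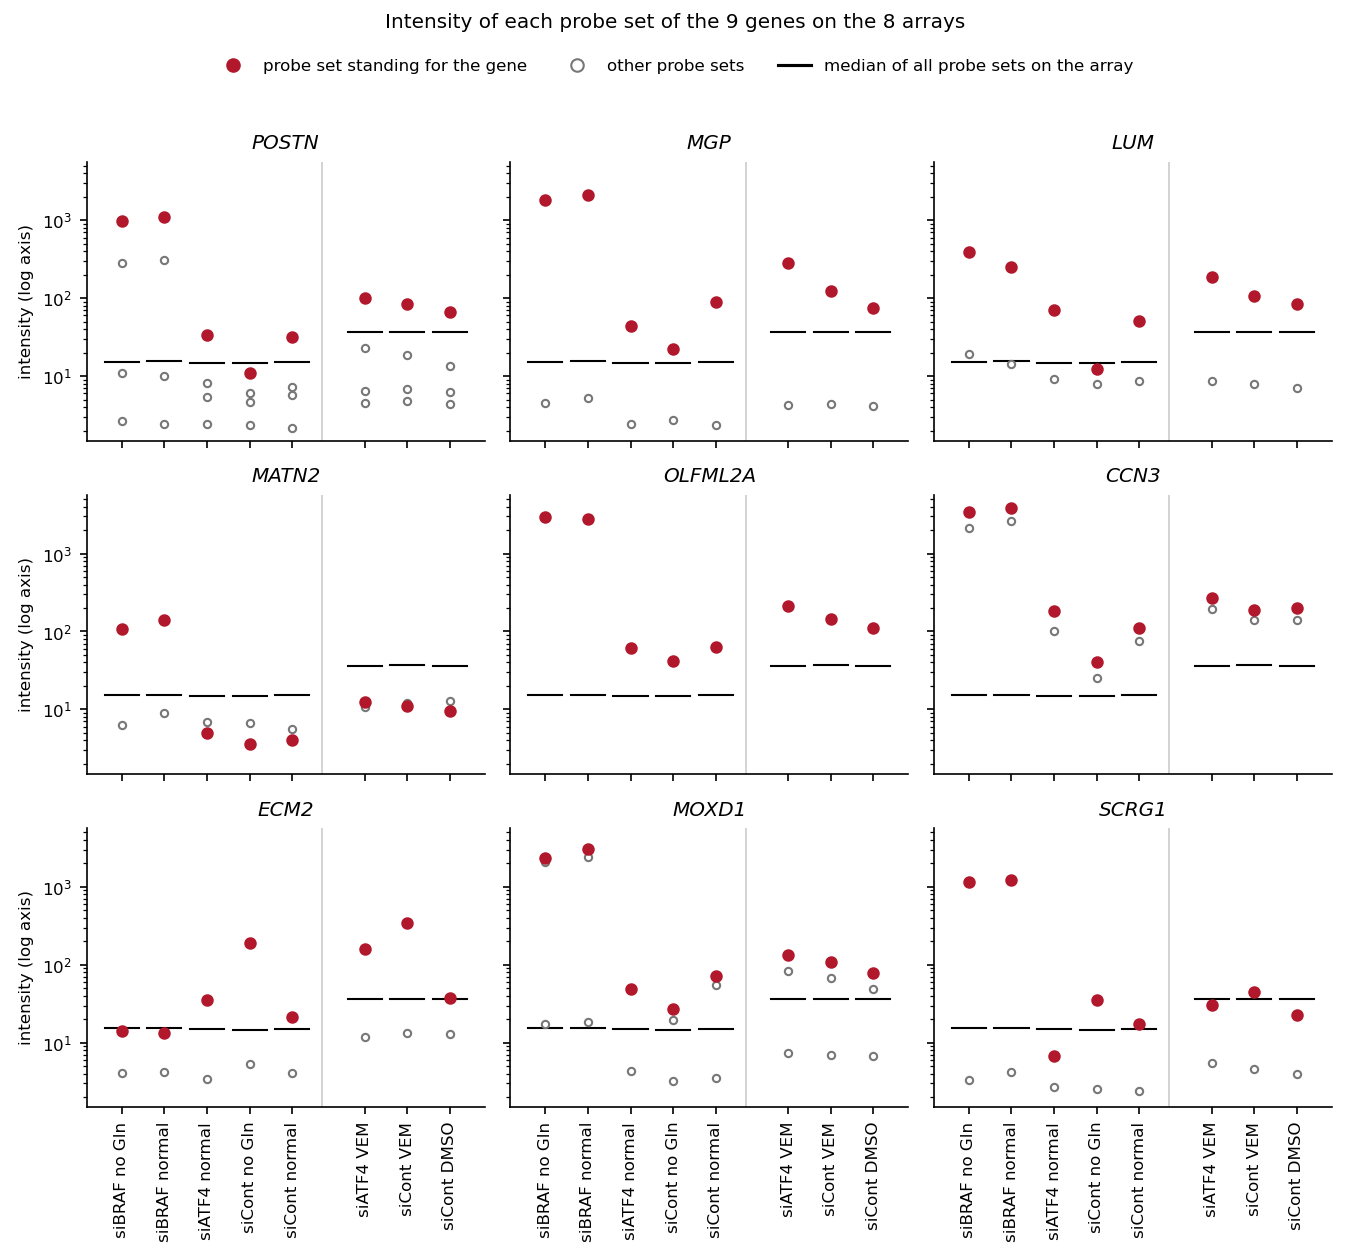
Intensity (log axis) of every probe set of the 9 genes on each of the 8 arrays, with filled points for the probe set standing for the gene, open points for its other probe sets and bars for the array median. The grey line parts the 2 scales. In 8 panels both siBRAF arrays stand above the other 3 arrays of their scale, and in the ECM2 panel they lie below the array median.

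The probe sets of a gene did not all follow. Of the 20, 13 passed the filter in normal medium and 12 of them were at least 2-fold higher with siBRAF, against 7.11% of all probe sets with 1 symbol. Without glutamine 14 passed, 13 were higher and 1 was lower, against 12.5% higher of all. These counts restate how the genes were picked. The filter takes the higher value, so a probe set could pass through its siBRAF array alone. On 6 of the 20, at least 1 each for POSTN, MGP, MATN2, ECM2 and SCRG1, no array reached its median. POSTN had a second responding probe set, which read 286 and 312 on the siBRAF arrays without glutamine and in normal medium, against 4.69 and 7.18 on the siCont arrays. The large values of POSTN, MGP, LUM and MATN2 came from probe sets whose identifiers mark them as shared between transcripts. Without such probe sets the siBRAF differences without glutamine and in normal medium were 0.77 and 0.71 for POSTN, 0.57 and 0.88 for MGP, 1.16 and 0.67 for LUM and -0.06 and 0.62 for MATN2. The probe sets left for POSTN, MGP and MATN2 reached the array median on 0 of the 8 arrays, and that of LUM on 1. The setting also dropped the second responding probe set of POSTN and the probe set standing for MOXD1. The number of genes at least 2-fold higher was then 5 without glutamine and 4 in normal medium. CCN3, OLFML2A, MOXD1 and SCRG1 kept differences of 5.02 to 6.65 under this setting.

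Vemurafenib for 4 h, set against DMSO in siCont cells, left 8 of the 9 genes within 2-fold. Of the 8 that passed the filter, 1 was at least 2-fold higher and 0 lower, against 0.859% higher and 1.92% lower of all genes. That gene was ECM2, with an intensity of 347 in vemurafenib against 37.6 in DMSO, 9.02-fold higher. It ranked 2 from the top among 13160 genes, and this difference is what put it on the list. With the mean of its 2 probe sets ECM2 was 3.07-fold higher, and its other probe set lay below the median on all 8 arrays. SCRG1 was next, with 45.0 in vemurafenib against 22.5 in DMSO (difference 0.97). Its DMSO value lay below the array median, and the difference was 0.30 with values raised to it. MGP read 122 in vemurafenib against 74.0 in DMSO (0.71). MOXD1, OLFML2A, LUM and POSTN had differences of 0.45, 0.39, 0.36 and 0.34, and CCN3 one of -0.09. MATN2, at 11.2 in vemurafenib and 9.46 in DMSO, lay below the median on both arrays. The siRNA and drug arrays differ in time and in scale, so their sizes were not set against each other.

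In siCont cells, 18 h without glutamine went with lower levels of most of these genes and with a higher level of ECM2. Of the 8 that passed the filter, 5 were at least 2-fold lower and 1 higher, against 7.22% lower and 5.76% higher of all genes. The median difference of the 8 was -1.41, against -0.045 over all genes tested. Both siCont arrays also entered the siBRAF contrasts that chose the genes, and a low siCont value without glutamine enlarges the siBRAF difference there. These counts are therefore a description too.

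LUM read 12.5 in glutamine-free against 51.6 in normal medium, 3.89-fold lower. MGP stood at 22.5 in glutamine-free against 90.4 in normal medium, also 3.89-fold lower. The differences were -1.45 for POSTN, -1.43 for CCN3 and -1.39 for MOXD1. OLFML2A, at 41.4 in glutamine-free and 63.8 in normal medium, was within 2-fold (-0.61). POSTN and LUM lay below the array median in glutamine-free medium. ECM2 read 189 in glutamine-free against 21.1 in normal medium, 8.59-fold higher, and 3.27-fold higher with the mean of its probe sets. SCRG1 read 34.9 in glutamine-free against 17.2 in normal medium (difference 0.98), just under 2-fold. The 5 lower genes became 2 under each of 3 settings, which were a filter at the 75th percentile, the mean of all probe sets, and no shared probe sets. On the siCont glutamine-free array the log2 value of the 3' actin control probes exceeded that of the 5' ones by 0.28, against 0.16 on the siCont array in normal medium. On the other 3 arrays of that set the gap was 0.16 to 0.20, and its part in the result was not tested.

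With siBRAF, the glutamine-free and the normal array had all 8 genes that passed the filter within 2-fold. Of all genes, 0.0457% were higher and 0.0761% lower, so this closeness is not particular to the 8. ATF4 read 1498 in glutamine-free and 1519 in normal medium with siBRAF, against 4360 and 1814 with siCont. The 2 siBRAF arrays thus differed little for nearly all genes. OLFML2A read 2904 in glutamine-free and 2776 in normal medium. SCRG1 read 1167 in glutamine-free and 1234 in normal medium. The largest difference was that of LUM, with 388 in glutamine-free against 249 in normal medium (0.64), and it ranked 56 from the top among 13138 genes. The other 7 lay between -0.39 for MATN2 and 0.07 for OLFML2A. ECM2, below the median on both arrays, read 14.3 in glutamine-free and 13.4 in normal medium. The difference between the glutamine responses of siBRAF and siCont cells was not tested.

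**Figure D2:**
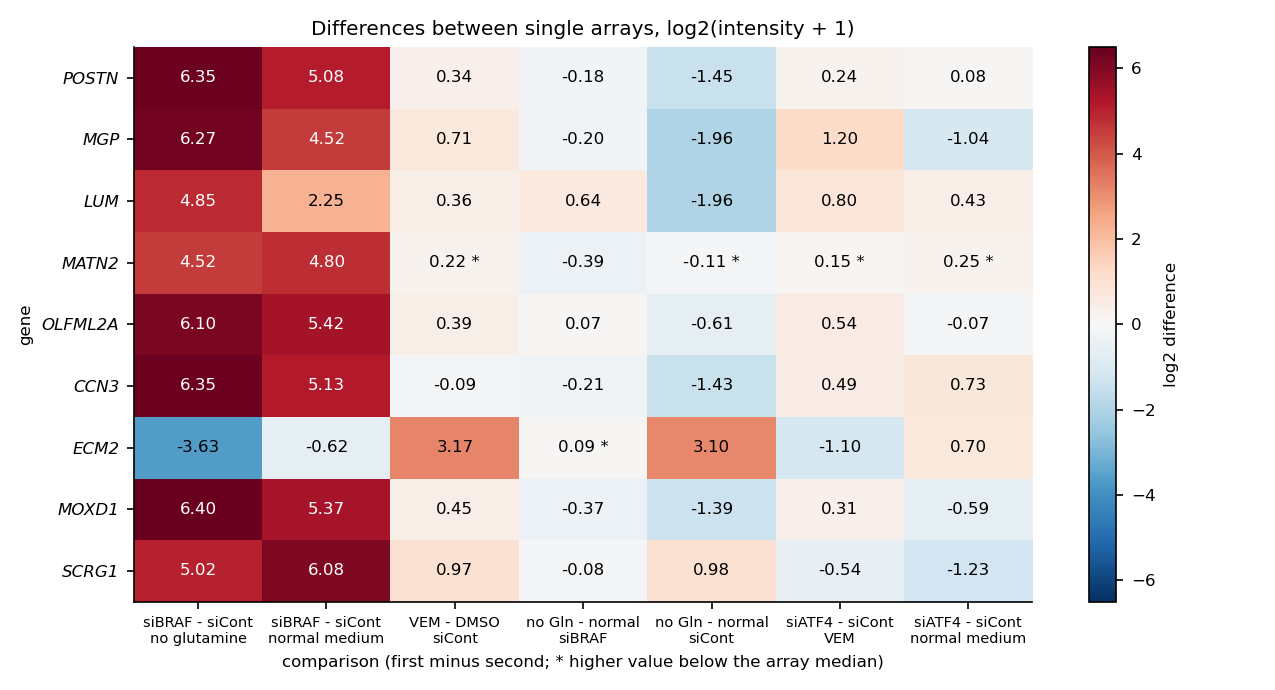
Differences of log2(intensity + 1) between pairs of single arrays for the 9 genes (rows) in the 7 comparisons (columns), each as the first condition minus the second, with an asterisk where the higher value lay below its array median. The first 2 columns are red for every gene but ECM2. ECM2 is red in vemurafenib and without glutamine in siCont cells, at 3.17 and 3.10.

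ATF4 knockdown went with smaller differences, and MGP, ECM2 and SCRG1 were the genes past 2-fold. The siCont arrays of these comparisons also entered the contrasts that chose the genes. In vemurafenib 1 gene of the 8 that passed the filter was at least 2-fold higher and 1 lower, against 0.205% higher and 0.729% lower of all genes. MGP read 283 with siATF4 against 122 with siCont in vemurafenib, 2.30-fold higher, rank 8 from the top among 13173 genes. ECM2 read 161 with siATF4 against 347 with siCont in vemurafenib, 2.15-fold lower, which was still above the 37.6 of siCont in DMSO. LUM, with 188 for siATF4 against 107 for siCont, was 1.74-fold higher. With the mean of all probe sets no gene was past 2-fold in vemurafenib, MGP then being at 0.60 and ECM2 at -0.63.

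In normal medium 0 of the 8 genes that passed the filter were at least 2-fold higher with siATF4 and 2 were lower, against 0.471% higher and 0.387% lower of all genes. SCRG1 read 6.78 with siATF4 against 17.2 with siCont, 2.34-fold lower. It lay below the array median with siATF4, and the difference of -1.23 became -0.20 with values raised to the median. MGP read 43.4 with siATF4 against 90.4 with siCont, 2.06-fold lower. With log2(intensity + 16) neither was past 2-fold. CCN3 read 183 with siATF4 against 110 with siCont (0.73), and ECM2 read 34.9 with siATF4 against 21.1 with siCont (0.70). POSTN, at 34.0 with siATF4 and 32.0 with siCont, and OLFML2A, at 60.8 with siATF4 and 63.8 with siCont, were nearly level. On the siATF4 array in normal medium 8 of the genes read below their siBRAF values there, and ECM2 read above its own. The same held on the siCont array. These 8 were picked for high siBRAF values, so their order restates that choice.

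Other matrix genes were taken from lists of relatives and partners of the 9. The leucine-rich proteins lie in clusters in the genome. LUM has KERA and DCN as its direct coding neighbours in the RefSeq annotation, and ECM2 has ASPN, with OMD and OGN beyond it. None of these neighbours shared the large values. DCN (decorin, a collagen-binding proteoglycan) read 28.3 with siBRAF against 25.8 with siCont without glutamine, and 29.6 with siBRAF against 33.9 with siCont in normal medium. KERA, ASPN, OMD and OGN lay below the array median on all 8 arrays. Of the 14 leucine-rich genes other than LUM and ECM2, 8 passed the filter without glutamine and 7 in normal medium. With siBRAF 0 were at least 2-fold apart in either. Of all genes, 12.8% were higher and 10.8% lower without glutamine, and 7.16% higher and 7.61% lower in normal medium.

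Relatives of OLFML2A and CCN3 were read the same way. Of 8 other olfactomedin-domain genes, 4 passed the filter in each medium and 2 were at least 2-fold higher with siBRAF in both, where 5.57% of all genes were. OLFML3 read 165 with siBRAF against 13.2 with siCont without glutamine, and 152 with siBRAF against 19.8 with siCont in normal medium. OLFML2B was at 1.34 and 1.71 on the log2 scale, from siCont values below the array median. Of 5 other CCN family genes, 4 passed the filter in each medium, and 1 was at least 2-fold higher with siBRAF without glutamine (12.8% of all genes) and 3 in normal medium (7.16% of all genes). CCN1 and CCN2 are known to be induced by mechanical and growth signals. With siBRAF, CCN1 stood at -0.25 without glutamine and at 1.26 in normal medium, and CCN2 at -0.51 and 1.11. In vemurafenib against DMSO they stood at -1.27 and -2.24, while CCN3 was at -0.09. With glutamine-free against normal medium in siCont cells they stood at 1.99 and 1.70, while CCN3 was at -1.43. CCN6 was higher with siBRAF, by 1.64 without glutamine and by 1.22 in normal medium, and CCN5 stood at 0.57 and 0.40.

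Of the matrilins, MATN4 was at 0.54 and 0.83 with siBRAF, without glutamine and in normal medium, and MATN3 lay below the median on all arrays. TGFBI, the closest relative of periostin, was 1.18 higher with siBRAF without glutamine and 0.44 in normal medium. PAM, a copper monooxygenase that amidates peptides, was at 1.34 and 0.67. Of the vitamin K cycle genes, GGCX, the carboxylase that modifies MGP, was at 0.79 and 0.10, VKORC1L1 at 0.12 and -0.84, and VKORC1 at 0.16 and -0.35.

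Among 42 other matrix glycoprotein and proteoglycan genes, 41 had a probe set. Without glutamine 34 passed the filter, 11 were at least 2-fold higher with siBRAF and 1 was lower, with a median of 0.17 against 0.02 over all genes. Of all genes, 12.8% were higher and 10.8% lower there. In normal medium 33 passed, 9 were higher and 2 lower, with a median of 0.28 against -0.006, and 7.16% of all genes were higher and 7.61% lower. EDIL3, an integrin-binding protein, led with 4.15 without glutamine and 3.14 in normal medium. It was followed by the basement membrane proteoglycan HSPG2 (3.0 and 2.12), the proteoglycan VCAN (2.56 and 2.06) and ECM1 (2.18 and 1.48). Of 16 crosslinking and processing genes, 14 passed the filter in each medium. With siBRAF 6 were higher and 1 lower without glutamine, and 2 were higher and 1 lower in normal medium, beside the same shares of all genes. The lysyl oxidase relative LOXL3 was at 2.24 and 1.73, PCOLCE2, which enhances collagen processing, at 2.03 and 1.07, and the transglutaminase TGM2 at -1.71 and -1.38. In vemurafenib against DMSO 31 and 14 genes of the 2 lists passed the filter, and 0 of either were at least 2-fold apart. Of all genes, 0.859% were higher and 1.92% lower in that comparison.

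**Figure D3:**
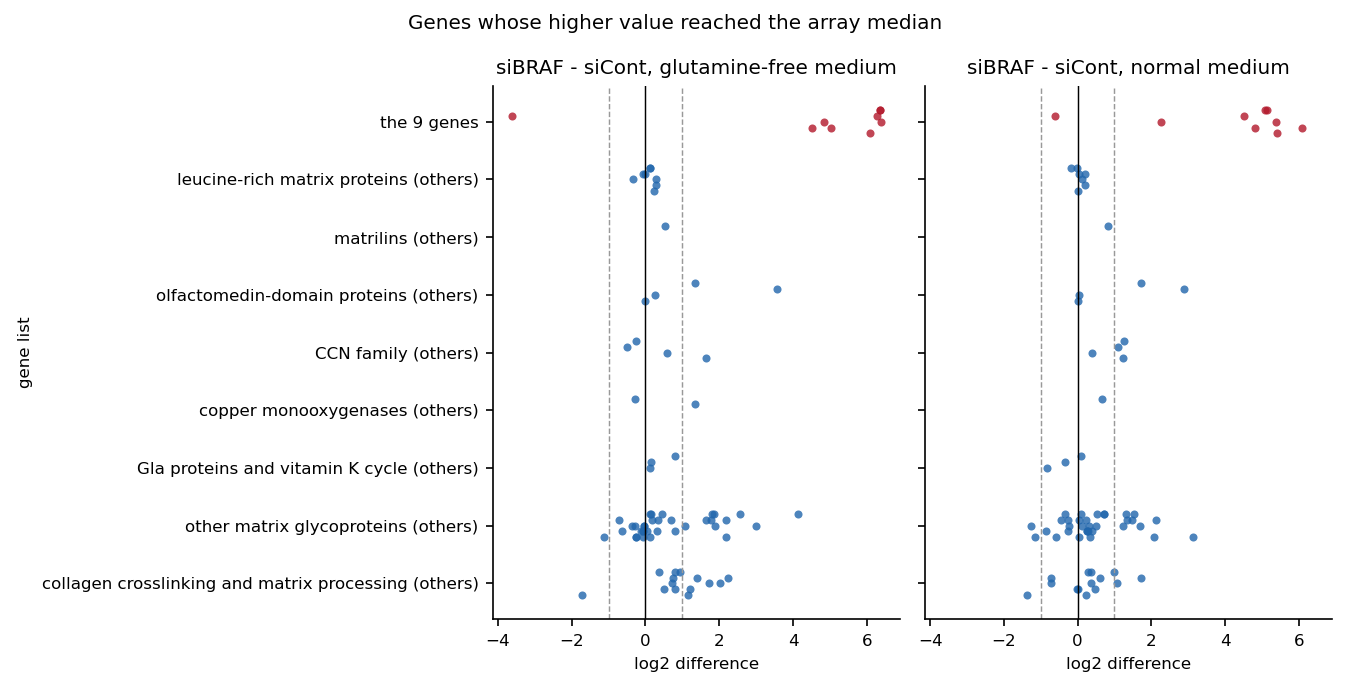
Differences of log2(intensity + 1), siBRAF minus siCont, in glutamine-free and in normal medium, for the 9 genes (red) and the other genes of each list (blue) whose higher value reached the array median, with dashed lines at 2-fold. The red genes were picked for these same differences, so their place on the axis restates that choice. Without glutamine all red points but ECM2 lie at or beyond 4.52, to the right of every blue point. In normal medium LUM, at 2.25, lies to the left of EDIL3 at 3.14 and OLFML3 at 2.88.

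Markers of other cell types were read beside these results, with 12.8% of all genes higher with siBRAF without glutamine and 7.16% in normal medium. Summed intensities follow the brightest probe sets of a list and are given only to set arrays side by side. Of 9 fibroblast markers other than LUM, 7 passed the filter in each medium and 2 were at least 2-fold higher with siBRAF, 0 lower. Their summed intensity was 1055 and 1033 on the siBRAF arrays without glutamine and in normal medium, against 344 and 342 on the siCont arrays. ACTA2, the contractile actin of myofibroblasts, read 787 and 756 on the siBRAF arrays against 119 and 88.3 on the siCont arrays. The other gene past 2-fold, COL3A1, was at 2.59 and 2.32, from siCont values below the median. PDGFRB was at 0.78 and 0.52, COL1A1 at 0.12 and 0.01, DCN at 0.13 and -0.19 and THY1 at -0.15 and 0.03. COL1A2 was at -0.55 and -0.14 and PDGFRA at -0.08 and -0.90. COL1A2 in normal medium and PDGFRA without glutamine did not pass the filter. FAP lay below the median on all 8 arrays. Of 11 melanocyte and neural crest markers with a probe set, 9 passed the filter in each medium, and 3 were higher with siBRAF without glutamine and 4 in normal medium, 0 lower, led by NGFR at 3.64 and 3.14 and S100B at 3.25 and 2.17. Their summed intensity was 5913 and 6620 on the siBRAF arrays against 3654 and 3382 on the siCont arrays. The list did not rise together: SOX9 stood at -0.69 and -0.95, PMEL at -0.19 and -0.32, and SOX10 at -0.22 and 0.40. Of 5 Schwann cell markers with a probe set, 3 passed the filter in each medium. Of these 3, 2 were higher without glutamine and 1 in normal medium. CDH19 stood at 2.82 and 2.44, ERBB3 at 1.68 and 0.33 and MBP at 0.08 and -0.14. The summed intensity of the 5 was 2295 and 2169 on the siBRAF arrays against 489 and 925 on the siCont arrays. PMP2 lay below the median on all 8 arrays. No listed marker was at 0, and the part of these genes in the result was not tested.

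The profile over the 8 arrays, with each gene centred on the mean of its array set, was compared by Euclidean distance to the median profile of the 9 genes. POSTN lay closest, at a distance of 0.51 on the log2 scale, followed by OLFML2A at 0.67, MOXD1 at 0.84, CCN3 at 0.91, MATN2 at 1.06 and MGP at 1.25. SCRG1 at 2.58, LUM at 2.69 and ECM2 at 8.6 stood apart. Among 12898 other genes that reached the median on at least 1 array of each set, the nearest were ADAMTS15 at 1.24, ZNF536 at 1.26, MAF at 1.28, PRUNE2 at 1.40, TMEM47 at 1.45 and LCTL at 1.55. ADAMTS15, a secreted metalloprotease, read 605 with siBRAF against 11.9 with siCont without glutamine, and 618 with siBRAF against 40.9 with siCont in normal medium. MAF, a transcription factor, read 1528 with siBRAF against 45.4 with siCont without glutamine, and 1549 with siBRAF against 128 with siCont in normal medium. These are likenesses over 8 single arrays that share the same 2 siBRAF arrays. The median profile came from the same 9 genes, picked mostly for high siBRAF values. The short distances of most of them, and the high siBRAF values of the nearest other genes, therefore restate that choice.

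**Figure D4:**
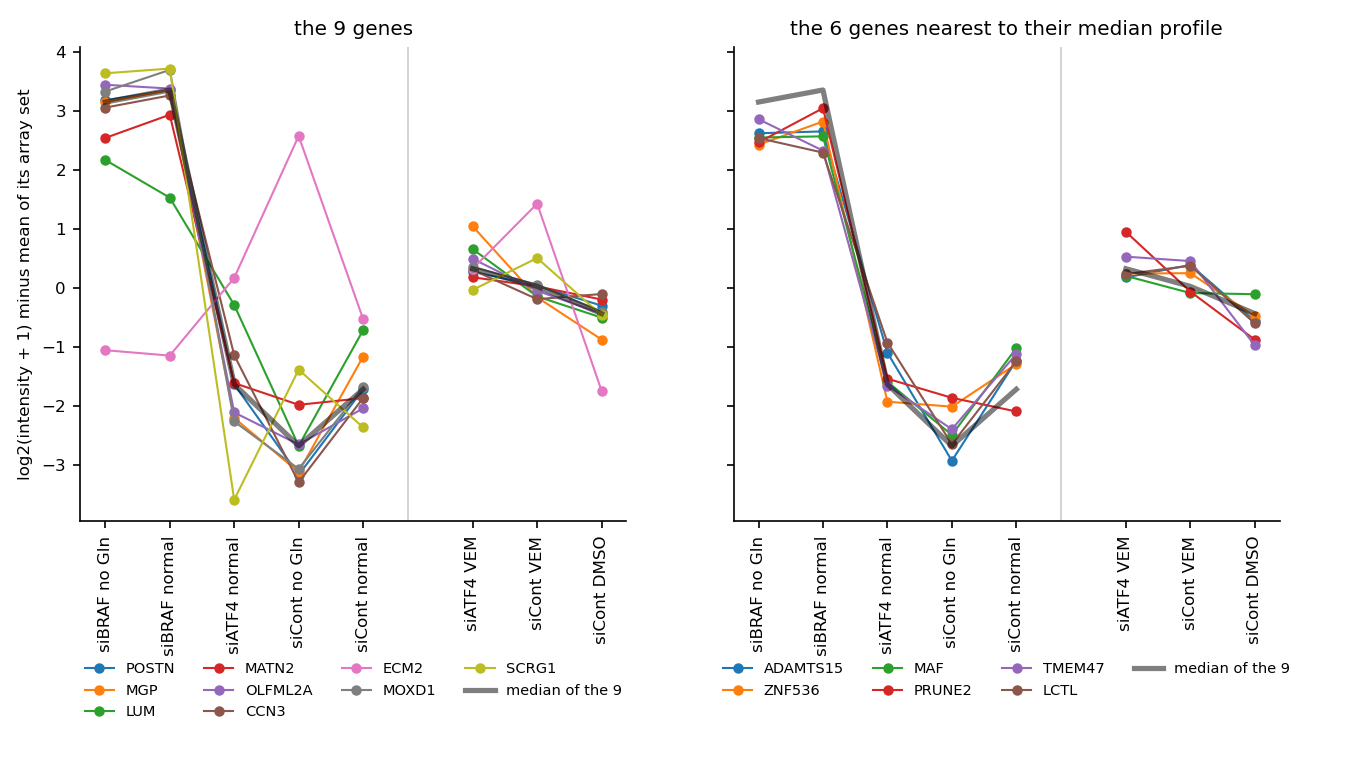
log2(intensity + 1) of each gene minus its mean over its array set, on the 5 arrays of one scale and the 3 of the other, for the 9 genes (left) and the 6 genes nearest to their median profile (right); the thick grey line is the median of the 9. ECM2 is the line that is lowest on the siBRAF arrays and highest on the siCont array without glutamine.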

How the data were processed

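Per the submitters' processing notes, the authors used RMA (robust multi-array averaging), whose version the sources used here do not give. The deposited values are linear intensities, one per probe set and array. Per the labels' protocols, 5 ug of total RNA went into each labelled cRNA. The number of arrays, 1 per condition, limits the precision. Of 54675 probe sets, 62 were array controls, 41091 had 1 gene symbol, 1801 several and 11721 none. Values were put on the log2(intensity + 1) scale with no further normalization, in Python 3.11.15 with numpy 2.4.6 and pandas 2.3.3. The difference and call steps were tested on simulated data.

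The 9 genes, the gene lists and the 7 comparisons were chosen with earlier results of these data known. From each list at most 4 genes were to be named, by the size of the mean siBRAF difference, while in lists of 6 or fewer genes any could be named. Genome neighbours, marker genes and genes named for a low level were chosen after their values were seen. Alternatives were log2(intensity + 16), no added constant, no filter, a filter at the 75th percentile, the mean of all probe sets, no shared probe sets and quantile normalization within a set. Raising low values to the array median was added after the data were seen.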

Additional observations from a re-analysis of the deposited data

Results flagged for a closer look

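For 3 of the genes the same contrast ran in opposite directions in 2 settings, by at least 0.5 on the log2 scale each way. Each rests on single arrays, and the differences between settings were not tested. LUM stood at 0.64 for glutamine-free minus normal medium in siBRAF cells and at -1.96 in siCont cells. MGP stood at 1.20 for siATF4 minus siCont in vemurafenib and at -1.04 in normal medium. ECM2 stood at -1.10 for siATF4 minus siCont in vemurafenib and at 0.70 in normal medium.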

How the results depend on the processing

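No paired analysis was possible because each condition has 1 array, and for the same reason no replicate could be left out. Of 112 counts of genes past 2-fold recomputed under 8 settings, 96 stayed within 1.5 times and 16 did not. Without shared probe sets, the genes higher with siBRAF were 5 without glutamine and 4 in normal medium. The same setting gave 2 lower without glutamine in siCont cells, and with siATF4 1 lower in normal medium and 0 higher in vemurafenib. It turned the sign of MATN2 with siBRAF without glutamine (-0.06), of POSTN (0.06) and MGP (0.15) without glutamine in siCont cells, and of MGP with siATF4 in vemurafenib (-0.01) and in normal medium (0.03). The probe sets that stood in for these 3 genes lay below the array median on all 8 arrays. The mean of all probe sets gave 2 lower without glutamine in siCont cells and, with siATF4, 0 higher and 0 lower in vemurafenib and 0 lower in normal medium. With no constant added, 2 genes were higher in vemurafenib and 2 without glutamine in siCont cells, and quantile normalization also gave 2 for glutamine-free medium. A filter at the 75th percentile gave 2 lower without glutamine in siCont cells and 1 lower with siATF4 in normal medium. The last count was 0 with log2(intensity + 16) and 1 with values raised to the array median. Of 504 differences of single genes, 46 moved by more than 1.5-fold without a change of sign. The 504 include 63 each for no filter and for the filter at the 75th percentile, and a filter cannot change a difference. With the mean of all probe sets 20 of 63 moved. Without shared probe sets 10 of 63 moved and 5 turned sign. Values below the array median carry background, which limits MATN2 on 6 arrays, SCRG1 on 3, ECM2 on both siBRAF arrays, and POSTN and LUM on the siCont array without glutamine.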
